A study of Rattus norvegicus with 36 samples.

Results

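Liver gene expression was compared between 6 rats given 0.1 mg/kg of the flame retardant TBBPA-DBPE and 6 rats given corn oil alone. Its full name, tetrabromobisphenol A-bis(2,3-dibromopropyl ether), marks it as a brominated compound. These 12 animals were taken by their titles from a series of 36, in which 4 further groups of 6 received higher doses: 0.94 and 9.4 mg/kg, then 94.3 and 943 mg/kg. All were male Harlan Sprague Dawley rats, 7 weeks old at the start, kept on the same NTP-2000 diet and gavaged at 5 mL/kg with corn oil, so the vehicle is common to every group and no group went without gavage. Dosing ran for 5 consecutive days and the left liver lobe was collected 1 day after the last dose. Each liver gave 1 Affymetrix array, and 31042 probe sets, which name 14217 genes, were measured in every animal. Values are on a log2 scale, so a difference of 1 is a 2-fold difference.

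Liver cells answer a shortage of amino acids or a disturbance of protein folding by phosphorylating the translation factor eIF2, which slows protein synthesis while favouring translation of the transcription factor ATF4. ATF4 and its partners then switch on enzymes that make serine and asparagine, amino acid importers, and stress genes such as Ddit3 and Chac1, often through a composite C/EBP-ATF element in the promoter. The same liver cells also break down amino acids through the urea cycle and gluconeogenesis, and they respond to many foreign chemicals by inducing cytochrome P450 enzymes through the receptors CAR, PXR, AhR and PPARalpha.

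Across the 36 arrays the array medians lay between 4.59 and 4.66, and vehicle replicate 1 had the lowest median correlation with the other arrays, 0.992. Markers of hepatocytes were bright, with a median vehicle level of 13.21 over 17 measured markers, and their median difference between 0.1 mg/kg and vehicle was 0.01. The standard error of a difference had a median of 0.0831 over the probe sets, and the 95% interval shut out a 2-fold difference for 99.6% of them. Because these are bulk samples, fewer cells of a type and less RNA per cell cannot be told apart.

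No probe set differed between 0.1 mg/kg and vehicle after adjustment. Of 31042 probe sets, 0 (0%) passed an adjusted p of 0.05 in limma, and the smallest adjusted p was 0.689. At an unadjusted p under 0.05 there were 1744 probe sets (5.62%), of which 932 (3%) were higher and 812 (2.62%) lower at 0.1 mg/kg. An ordinary linear model without moderation also passed 0 and left 1802 at the unadjusted level. Over the 14217 genes, each read from its brightest probe set, 771 (5.42%) had an unadjusted p under 0.05, 430 (3.02%) higher and 341 (2.4%) lower. The difference was above 0 for 50.6% of the genes, its median was 0.0014 and the median of its absolute size was 0.057. Every gene described below is therefore one that did not pass, and the values describe these 12 livers.

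**Figure D1:**
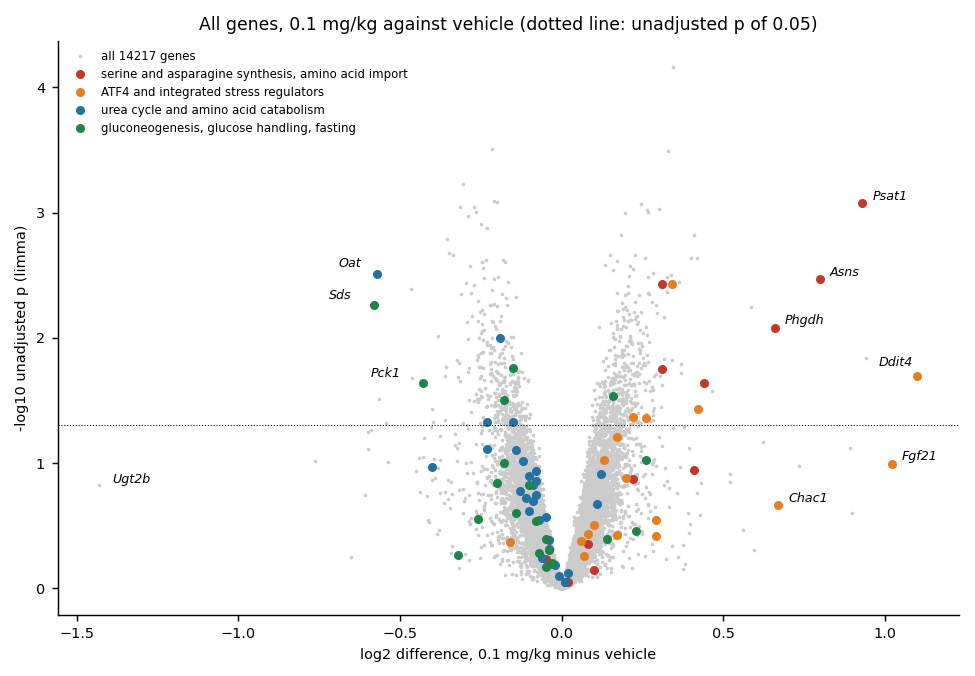
Each point is 1 of 14217 genes, with the log2 difference between 0.1 mg/kg and vehicle on the horizontal axis and -log10 of the unadjusted limma p on the vertical axis; coloured points are the members of 4 gene lists, and the dotted line marks an unadjusted p of 0.05. Psat1, Asns, Phgdh and Ddit4 lie far to the right, at 0.93, 0.80, 0.66 and 1.10, while most genes lie close to 0.

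Most measured genes of serine synthesis and of the ATF4 programme were higher at 0.1 mg/kg. On a list of serine and asparagine synthesis and amino acid import, 12 of 14 genes were higher at 0.1 mg/kg, where 50.6% of all genes were, with a median difference of 0.27 and a range of -0.05 to 0.93. Of these, 6 (Phgdh, Psat1, Psph, Mthfd2, Asns and Slc3a2) were higher at an unadjusted p under 0.05. On a list of ATF4 and integrated stress regulators, 17 of 18 genes were higher, with a median of 0.21, and 5 (Atf5, Ddit4, Nupr1, Vldlr and Ddit3) were higher at an unadjusted p under 0.05. The exception was Cebpb at -0.16. Over all genes, for comparison, the median difference was 0.0014 and 3.02% were higher at that level. These were the highest medians among 40 lists, but 0 members passed and the lists were drawn up with earlier results of these data known. Against the same vehicle rats, 12, 12, 13 and 12 of the 14 serine list genes were higher at the 4 higher doses. The direction of that list was therefore not particular to 0.1 mg/kg. For the ATF4 list these counts were 17, 14, 9 and 11 of 18, in order of dose.

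In the 3 members of the ATF4 list shown here, the reference promoter holds a match to the letters of the composite element. The promoters, from RefSeq on build GRCr8, run from 250 bases before to 50 bases after the start site and were searched on both strands for TGATGNAA, in capitals below. They are shown because Fgf21, Nupr1 and Chac1 have the largest differences among the listed genes with a match. Fgf21 lies at chr1:105221327-105221626 on the minus strand, Nupr1 at chr1:190645852-190646151 on the minus strand and Chac1 at chr3:126795881-126796180 on the plus strand.

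Fgf21: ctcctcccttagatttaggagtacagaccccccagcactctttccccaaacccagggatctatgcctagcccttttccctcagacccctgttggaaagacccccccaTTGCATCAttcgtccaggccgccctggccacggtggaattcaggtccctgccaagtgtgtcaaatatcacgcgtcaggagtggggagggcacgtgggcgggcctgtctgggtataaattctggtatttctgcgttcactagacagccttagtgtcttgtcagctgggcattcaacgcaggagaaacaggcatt
Nupr1: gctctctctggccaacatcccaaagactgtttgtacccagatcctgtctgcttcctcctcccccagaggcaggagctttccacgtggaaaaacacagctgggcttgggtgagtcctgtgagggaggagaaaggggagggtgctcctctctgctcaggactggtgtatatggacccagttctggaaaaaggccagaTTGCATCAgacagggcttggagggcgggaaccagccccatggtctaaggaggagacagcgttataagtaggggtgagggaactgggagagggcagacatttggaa
Chac1: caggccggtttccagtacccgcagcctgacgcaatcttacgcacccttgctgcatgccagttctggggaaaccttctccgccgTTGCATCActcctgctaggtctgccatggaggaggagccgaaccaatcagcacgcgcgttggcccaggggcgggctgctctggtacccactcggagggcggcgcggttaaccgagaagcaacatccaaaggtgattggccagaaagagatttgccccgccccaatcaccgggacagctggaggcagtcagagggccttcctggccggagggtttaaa

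Each of the 3 promoters held a single match, on the strand opposite the gene and spelled TTGCATCA in the gene's direction. Its first base lay 143 bases before the start site in Fgf21, 55 in Nupr1 and 167 in Chac1. In all, 4 of 16 genes of the ATF4 list with a promoter in the table (25%) held a match, the fourth being Trib3, whose difference was 0.29, or 0.10 without dosed replicate 4. In the serine list 2 of 13 (15.4%) held one, Slc7a1 with a difference of 0.22 (0.08 without dosed replicate 4) and Pck2 with 0.08. Among all 27457 genes with a promoter, 1141 (4.16%) did. A match is a description of the letters in this window only. Psat1, Asns, Phgdh and Ddit4 had none there.

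Serine is made from a glycolytic intermediate by Phgdh, Psat1 and Psph in that order. Psat1, the transaminase, ran from 6.34 through a median of 6.64 to 7.61 in the vehicle rats and from 6.68 through 7.83 to 8.30 at 0.1 mg/kg. The groups overlapped: dosed replicate 1, the lowest of its group, lay below vehicle replicates 3 and 5, while the other 5 dosed rats lay above every vehicle rat. The difference was 0.93 ± 0.254 (SE; 95% interval 0.41 to 1.44), with an adjusted p of 0.823 in limma. Phgdh, the dehydrogenase that commits carbon to serine, ran from 7.49 through 7.75 to 8.68 in vehicle and from 7.62 through 8.55 to 9.41 at 0.1 mg/kg. Here 2 of 6 dosed rats exceeded the highest vehicle rat, and the difference was 0.66 ± 0.235 (interval 0.18 to 1.13). Psph, the final phosphatase, was higher by 0.31 ± 0.125, its dosed rats between 6.93 and 7.36 and its vehicle rats between 6.61 and 7.25.

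As with Psat1, asparagine synthetase, Asns, was highest among vehicle rats in replicate 5. Among dosed rats it was likewise lowest in replicate 1 and highest in replicate 2. Its values ran from 6.01 through 6.67 to 7.66 in vehicle and from 6.58 through 7.64 to 8.38 at 0.1 mg/kg. Dosed replicate 1 lay within the vehicle range, and 3 of 6 dosed rats lay above it. The difference was 0.80 ± 0.256 (interval 0.28 to 1.32; adjusted p of 0.823 in limma). Mthfd2, a mitochondrial folate enzyme that uses serine carbon, was higher by 0.44 ± 0.185.

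Among the importers, Slc3a2, the heavy chain shared by several amino acid exchangers, ran from 9.18 through 9.33 to 9.43 in vehicle and from 9.41 through 9.59 to 10.01 at 0.1 mg/kg. All dosed rats but replicate 1 lay above the vehicle range, replicate 2 far above the others, and the difference was 0.31 ± 0.101. Slc7a11, the cystine importer that pairs with Slc3a2, was dim, with both means below every array median, and differed by 0.41 ± 0.255; without dosed replicate 2 the difference was 0.26. Slc7a1, which carries lysine and arginine, was higher by 0.22 with an unadjusted p of 0.133. The other members of the list lay between -0.05 and 0.10.

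The order of animals was shared across the list. Vehicle replicate 5 was the highest vehicle rat for 10 of 14 members (71.4%, against 19.6% of all genes), and dosed replicate 2 the highest dosed rat for 9 (64.3%, against 23%). Dosed replicate 1 was the lowest dosed rat for 7 (50%, against 16.5%). Taken as the median over members relative to the vehicle mean, the list stood at 0.39 in vehicle replicate 5 and 0.17 in replicate 3, and between -0.13 and -0.11 in the other 4 vehicle rats. At 0.1 mg/kg it stood between 0.14 and 0.44 in 5 rats and at -0.04 in replicate 1. Leaving out 1 rat at a time moved the list's median difference between 0.21 and 0.33.

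**Figure D2:**
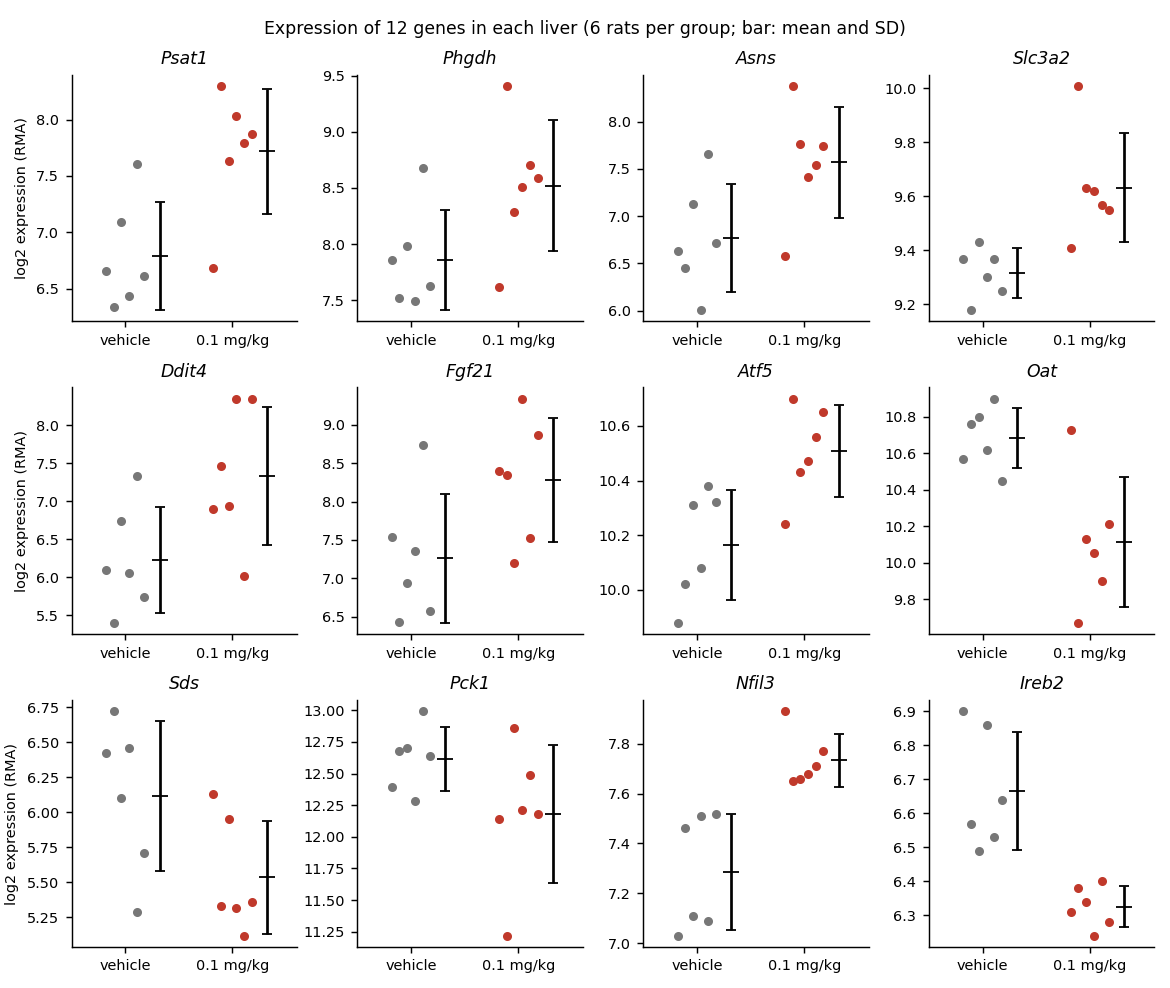
Each panel shows 1 gene, with the log2 RMA value of each liver as a point (6 vehicle, 6 at 0.1 mg/kg) and the group mean and SD as a bar; the vertical scales differ between panels. For Psat1, 5 of 6 dosed rats lie above every vehicle rat; for Nfil3 and Ireb2 the groups do not overlap.

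In the ATF4 list, Ddit4, which restrains the growth kinase mTORC1, had the largest difference. It ran from 5.40 through 6.08 to 7.33 in vehicle and from 6.01 through 7.20 to 8.35 at 0.1 mg/kg. The groups overlapped over much of their range, and 3 of 6 dosed rats exceeded the highest vehicle rat, again replicate 5. The difference was 1.10 ± 0.453 (interval 0.18 to 2.02), a fold of 2.15, with an adjusted p of 0.855 in limma. Fgf21, a hormone the liver releases in fasting and amino acid shortage, ran from 6.43 through 7.15 to 8.73 in vehicle and from 7.20 through 8.37 to 9.34 at 0.1 mg/kg. Only 2 dosed rats exceeded vehicle replicate 5, and the interval of the difference of 1.02 ± 0.607 included 0 (-0.21 to 2.25).

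The transcription factors of the list differed less. Atf5, which is translated in stress and acts beside ATF4, ran from 9.88 through 10.19 to 10.38 in vehicle and from 10.24 through 10.51 to 10.70 at 0.1 mg/kg. All dosed rats but replicate 1 lay above the vehicle range, and the difference was 0.34 ± 0.11 (interval 0.12 to 0.57). Ddit3, which encodes CHOP, was higher by 0.26 ± 0.122, with 2 of 6 dosed rats above the vehicle range. The Atf4 transcript itself differed by 0.17 ± 0.185, and by 0.08 without vehicle replicate 6, its lowest value.

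Nupr1, a small stress-induced nuclear protein, was higher by 0.42 ± 0.193, yet no dosed rat exceeded vehicle replicate 5 at 9.63. Vldlr, a lipoprotein receptor and ATF4 target, was higher by 0.22 ± 0.105, and its 3 other probe sets gave 0.09, 0.19 and 0.21. Chac1, which degrades glutathione, ran from 5.94 through 6.75 to 9.05 at 0.1 mg/kg and from 6.00 through 6.19 to 7.29 in vehicle. Its difference of 0.67 ± 0.535 rested largely on dosed replicate 4 and was 0.27 without it. As a median over members, the ATF4 list stood between 0.07 and 0.37 in the dosed rats and between -0.21 and 0.20 in the vehicle rats. Leaving out single rats moved its median difference between 0.13, without dosed replicate 4, and 0.25, with 17 members higher each time.

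Genes that dispose of amino acids lay on the other side. Of 28 measured genes of the urea cycle and amino acid catabolism, 24 were lower at 0.1 mg/kg, with a median difference of -0.09, a range of -0.57 to 0.12 and 4 (Oat, Uroc1, Bhmt and Gls2) lower at an unadjusted p under 0.05, where 2.4% of all genes were. Of 20 genes of gluconeogenesis, glucose handling and fasting, 16 were lower, with a median of -0.09. Here 4 (Sds, Txnip, Pck1 and Pc) were lower and 1 (Pfkfb3) higher at that level. Neither list had a member that passed. At the 4 higher doses, against the same vehicle rats, 6, 2, 9 and 8 of the 28 catabolism genes were higher. For the gluconeogenesis list these counts were 7, 5, 7 and 11 of 20. Against those doses, 6 of 28 and 6 of 20 were higher at 0.1 mg/kg.

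Oat, which turns ornithine into a glutamate precursor, ran from 10.45 through 10.69 to 10.90 in vehicle and from 9.67 through 10.09 to 10.73 at 0.1 mg/kg. Dosed replicate 1 stood among the vehicle rats and the other 5 below all of them. The difference was -0.57 ± 0.179 (interval -0.93 to -0.21; adjusted p of 0.823 in limma). Uroc1, of histidine breakdown, was lower by 0.19 ± 0.0689, Bhmt, which remethylates homocysteine, by 0.23 ± 0.112, and Gls2, the liver glutaminase, by 0.15 ± 0.0746. Gpt, alanine aminotransferase, differed by -0.40 with an unadjusted p of 0.107, and Cps1, which commits ammonia to urea, by -0.09. Gpt ran from -0.64 without vehicle replicate 5 to -0.27 without dosed replicate 4, and Cps1 stood at -0.03 without dosed replicate 2. As a median over members the list stood between -0.07 and 0.04 in the vehicle rats; at 0.1 mg/kg replicates 3 to 6 stood between -0.17 and -0.08 and replicates 1 and 2 at 0.02 and 0.01.

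Sds, which converts serine to pyruvate, ran from 5.29 through 6.26 to 6.72 in vehicle and from 5.12 through 5.34 to 6.13 at 0.1 mg/kg. Vehicle replicate 5 was the lowest of its group, within the dosed range, and the difference was -0.58 ± 0.197 (interval -0.98 to -0.18). Pck1, the gluconeogenic carboxykinase, ran from 12.28 through 12.66 to 12.99 in vehicle and from 11.22 through 12.19 to 12.86 at 0.1 mg/kg. The difference was -0.43 ± 0.182, of which dosed replicate 2 carried a large share, since it was -0.24 without that rat. Pc, pyruvate carboxylase, differed by -0.18 ± 0.0797 and Txnip, a glucose-responsive inhibitor of thioredoxin, by -0.15 ± 0.0612. Pfkfb3, which promotes glycolysis, differed by 0.16 on its brightest probe set and by -0.15 and -0.06 on the others. Without 1 rat at a time the medians ran from -0.10 to -0.06 for amino acid catabolism and from -0.13 to -0.05, the last without dosed replicate 6, for gluconeogenesis.

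Of 32 genes of PPARalpha signalling and fatty acid oxidation, 28 were lower with a median of -0.06, and 0 reached an unadjusted p under 0.05 in limma. Over all genes, 50.6% were higher. At the 4 higher doses, against the same vehicle rats, 5, 6, 6 and 5 of the 32 were higher. The medians there were -0.08, -0.04, -0.05 and -0.05, in order of dose. Against those doses, 15 of 32 were higher at 0.1 mg/kg, so the shift was not particular to this dose. Cyp4a1, a PPARalpha target that hydroxylates fatty acids, differed by -0.21 ± 0.162 and Angptl4, which inhibits lipoprotein lipase, by -0.44 with an unadjusted p of 0.0911. Without dosed replicate 6 these were -0.12 for Cyp4a1 and -0.27 for Angptl4, and the list's median was -0.03. Fgf21, also a PPARalpha target, was the member farthest in the other direction.

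**Figure D3:**
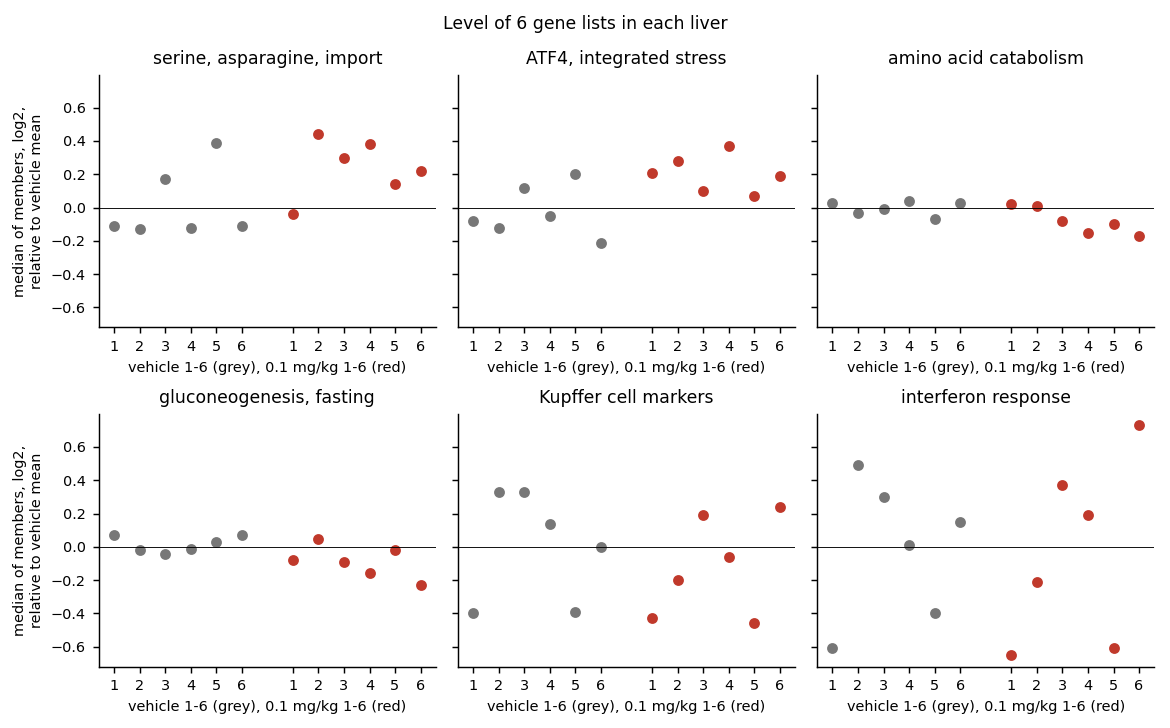
Each panel shows 1 gene list, with 1 point per liver giving the median over the list's members of the log2 value relative to that gene's vehicle mean; vehicle replicates 1 to 6 are grey and 0.1 mg/kg replicates 1 to 6 red. The serine list is highest in dosed replicate 2 (0.44) and vehicle replicate 5 (0.39), and the Kupffer cell and interferon lists spread widely within both groups.

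Genes known to respond to foreign chemicals differed little. Of 20 measured CAR and PXR targets, 6 were higher and 14 lower, with a median of -0.04, a range of -0.21 to 0.18 and 0 at an unadjusted p under 0.05. Cyp3a23-3a1, the PXR-inducible P450, ran from 12.07 through 12.32 to 12.47 in vehicle and from 12.03 through 12.23 to 12.52 at 0.1 mg/kg. The groups overlapped over nearly their whole range, and the interval of the difference of -0.04 was -0.21 to 0.13. Por, the electron donor of P450 enzymes, and Abcc3, a basolateral efflux pump, each differed by 0.18, with intervals of -0.07 to 0.44 and -0.10 to 0.45. Without dosed replicate 1 the difference of Por was 0.11, and without dosed replicate 4 that of Abcc3 was 0.07.

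Of 9 genes of the AhR list, 4 were higher and 5 lower with a median of -0.02, or 0.03 without vehicle replicate 3. Cyp1a1, its most inducible target, was dim and differed by 0.12 ± 0.0778 (0.06 without vehicle replicate 1), while Cyp1a2, abundant in liver, differed by -0.08 ± 0.0677. Aldh3a1, another AhR target, was lower by 0.31 ± 0.0868, yet its levels of 2.36 to 3.25 lay below every array median. Of 20 NRF2 and oxidative stress genes, 13 were higher with a median of 0.03: Nqo1, a quinone reductase, differed by 0.13 ± 0.115, Hmox1, which degrades haem, by -0.11 ± 0.105 (-0.05 without vehicle replicate 2), and Gclc, which limits glutathione synthesis, by 0.19 ± 0.0895, but by 0.00 on its other probe set. Among 18 measured response genes chosen across these pathways, differences ran from -0.21 to 0.26, 8 higher and 10 lower. The 95% interval shut out a 2-fold difference for all 18. Ddit3 was the 1 gene of 18 at an unadjusted p under 0.05 in limma, a level that 5.42% of all genes reached.

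Lipid and hormone pathways differed by small amounts. Cholesterol synthesis genes were higher in 12 of 17 cases, with a median of 0.08 that ran from 0.03 without vehicle replicate 5 to 0.12 without vehicle replicate 1, and Msmo1, a sterol methyl oxidase, differed by 0.32 ± 0.195. Genes of fatty acid and triglyceride synthesis were lower in 17 of 24, with a median of -0.05. That median ran from -0.10 without vehicle replicate 4 to 0.0 without vehicle replicate 5. Bile acid genes were lower in 11 of 15, with a median of -0.03, and Cyp8b1, which sets the cholic acid share, differed by -0.18 ± 0.1. In the thyroid hormone list 7 of 13 were higher and Serpina7, the thyroxine-binding globulin, differed by 0.39 ± 0.216, or by 0.23 without vehicle replicate 6. Among 24 nuclear receptors 11 were higher, and Esr1, the oestrogen receptor, was lower by 0.36 ± 0.174 at dim levels.

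Protein production and folding split. Of 23 ribosome biogenesis genes, 19 were higher (50.6% of all genes were) with a median of 0.12, 5 of them at an unadjusted p under 0.05 (3.02% of all genes): Rrp9 by 0.13, Nop56 by 0.21, Gar1 by 0.26, Nip7 by 0.24 (0.16 without vehicle replicate 6) and Wdr75 by 0.22, the last with -0.09 on another probe set. These encode parts of the nucleolar machinery that modifies and assembles ribosomal RNA. Vehicle replicate 6 was the lowest vehicle rat for this list, and without it the median was 0.06. From 0.94 to 943 mg/kg, 17, 16, 23 and 10 of the 23 were higher than in the same vehicle rats. The medians there were 0.05, 0.05, 0.21 and -0.02. Against those doses, 17 of 23 were higher at 0.1 mg/kg, with a median of 0.03 and 0 at an unadjusted p under 0.05 in limma. Endoplasmic reticulum chaperones were lower in 17 of 22 (50.6% of all genes were higher), with a median of -0.08. Pdia4, a disulphide isomerase, was lower by 0.16 ± 0.0762. Of the 22 chaperone genes, 11, 7, 7 and 3 were higher than in the same vehicle rats from 0.94 to 943 mg/kg. Against those doses, 1 of 22 was higher at 0.1 mg/kg. Oxidative phosphorylation genes were higher in 39 of 49, though the median was 0.02. At the 4 higher doses, against the same vehicle rats, 39, 29, 36 and 44 of them were higher. Against those doses, 20 of 49 were higher at 0.1 mg/kg. Cox5a, of complex IV, was higher by 0.23 ± 0.092, and by 0.13 without vehicle replicate 1. Sdha, the catalytic subunit of complex II, was lower by 0.20 ± 0.0549, with dosed rats from 10.22 to 10.49 and vehicle rats from 10.42 to 10.71.

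**Figure D4:**
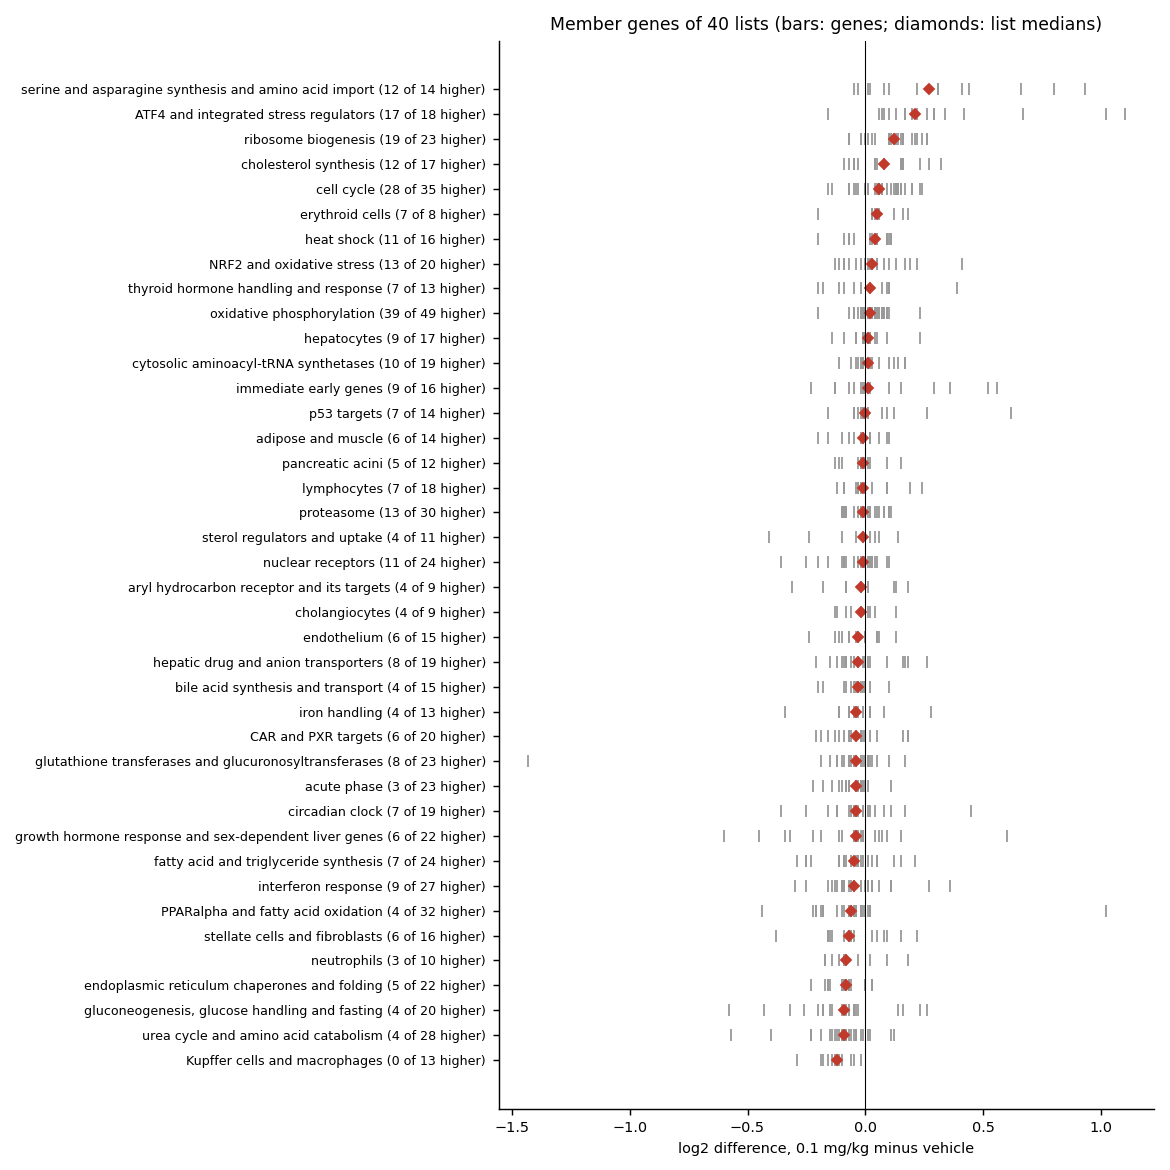
Each row is 1 of 40 gene lists, ordered by median; grey bars are the log2 differences of its measured members between 0.1 mg/kg and vehicle, red diamonds the list medians, and row labels give how many members were higher. The serine and ATF4 lists stand at the top with medians of 0.27 and 0.21, and most medians lie within 0.10 of 0.

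In 73 probe sets (0.235%) the 2 groups did not overlap, 35 (0.113%) with all dosed rats higher and 38 (0.122%) with all lower. Over genes there were 39 (0.274%), 22 (0.155%) higher and 17 (0.12%) lower. Whether more probe sets separated the 6 dosed from the 6 vehicle rats than chance alone would give was not tested. The counts are a description. The widest gap among genes was that of Nfil3, a repressor of clock-controlled genes. It ran from 7.03 through 7.29 to 7.52 in vehicle and from 7.65 through 7.70 to 7.93 at 0.1 mg/kg, leaving a gap of 0.13. The difference was 0.45 ± 0.19, with an adjusted p of 0.856 in limma. The vehicle rats lay at both ends of their range, replicates 1, 3 and 5 low and replicates 2, 4 and 6 high, whereas the dosed rats were close together. Nr1d1, the clock repressor that acts on Nfil3, differed by -0.25 ± 0.133, and of 19 clock genes 7 were higher with a median of -0.04.

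Ireb2, an RNA-binding protein that raises iron uptake when iron is scarce, had the widest gap in the other direction. It ran from 6.49 through 6.60 to 6.90 in vehicle and from 6.24 through 6.33 to 6.40 at 0.1 mg/kg, and the difference was -0.34 ± 0.102 (interval -0.54 to -0.13). Its partner Aco1 differed by -0.11 ± 0.0555. Tfrc, the transferrin receptor whose message they protect, differed by 0.28 ± 0.166, and of 13 iron genes 4 were higher. Aco1 stood at -0.07 without vehicle replicate 4, and Tfrc at 0.18 without dosed replicate 2.

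The other widest gaps with dosed rats higher were those of Cfap126 (0.17), Ppie, a spliceosomal prolyl isomerase (0.18), Slco4a1, an organic anion carrier (0.26, but -0.02 on its other probe set), and Mrps6, of the mitochondrial ribosome (0.20). With dosed rats lower they were Chst3, a chondroitin sulphotransferase (-0.28), Olfm1 (-0.35), Ptprb, an endothelial phosphatase (-0.24), and Alox12, a lipoxygenase (-0.31). The other probe set of Olfm1 gave only -0.04 and that of Ptprb -0.08. Slco4a1, Chst3, Olfm1 and Alox12 were dim, with both means below every array median.

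The 12 genes of smallest p in each direction were mostly small differences. Ccl28, an epithelial chemokine, had the smallest p of any gene: its vehicle rats ran from 4.10 to 4.24 and its dosed rats from 4.27 to 4.72, a difference of 0.34 ± 0.076 with an adjusted p of 0.689. All 6 dosed rats lay above the vehicle rats, but both means were below every array median. Mcrip2 was higher by 0.33 and Stau2, a double-stranded RNA-binding protein, by 0.30, with its 3 other probe sets at 0.10, 0.14 and 0.18. Rps6, a ribosomal protein that growth signals phosphorylate, was higher by 0.20 ± 0.0545, from 11.88 to 12.11 in vehicle and from 11.97 to 12.31 at 0.1 mg/kg. Besides Psat1, Slco4a1 and Ppie, the remaining genes on the higher side were Ube3al1 (0.41), Otud7a (0.27), Stac (0.24), Yipf7 (0.23) and Atpsckmt (0.15).

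On the lower side, Lhpp, a phosphohistidine phosphatase, had the smallest p: it ran from 7.65 through 7.81 to 7.86 in vehicle and from 7.45 through 7.53 to 7.67 at 0.1 mg/kg, a difference of -0.22 ± 0.054 with an adjusted p of 0.689 in limma. Only the edges of the groups overlapped. Slc22a8, an organic anion uptake carrier, was lower in all 6 dosed rats (10.08 to 10.22) than in any vehicle rat (10.23 to 10.51), by 0.21 ± 0.0575, and its other probe set gave -0.17. Camk2d, a calcium-dependent kinase, was also lower in all 6, by 0.35, while its other probe sets gave -0.01 and 0.12. Hspg2, the basement membrane proteoglycan perlecan, and Slc10a7 were each lower by 0.27. The rest were Sdha, Aldh3a1, Alox12 and Olfm1, given above, and Hook2 (-0.29), Vip (-0.25) and Pknox2 (-0.23). Of these 24 genes, 10 were below every array median and 8 had groups that did not overlap, against 39 of all 14217 genes (0.274%). Picking genes by small p in the same rats favours groups that do not overlap, so the count of 8 is no further result.

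A difference of 2-fold or more was found in 4 probe sets (0.0129%): those of Ddit4 and Fgf21 and both probe sets of Ugt2b, a glucuronosyltransferase. For Ugt2b, 1 animal made the difference. Its brighter probe set ran from 12.68 to 12.82 in vehicle and from 12.30 to 12.86 in 5 dosed rats, but stood at 4.71 in dosed replicate 1; the difference was -1.43 with that rat and -0.11 without it. The other probe set stood at 1.86 in the same rat, and its difference of -1.38 became -0.17. From 0.94 to 943 mg/kg the brighter probe set differed from vehicle by -0.22, -0.16, -0.29 and -1.40, each with an SE of 0.973. Whether single rats made the difference at 943 mg/kg was not tested.

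Markers of other liver cells varied between rats of both groups. All 13 measured Kupffer cell and macrophage markers were lower at 0.1 mg/kg, with a median of -0.12 and none at an unadjusted p under 0.05. Over all genes, 50.6% were higher. From 0.94 to 943 mg/kg, 2, 11, 10 and 2 of the 13 were higher than in the same vehicle rats. The medians there were -0.12, 0.13, 0.04 and -0.07. Against those doses, 1 of 13 was higher at 0.1 mg/kg. Clec4f, a Kupffer cell lectin, differed by -0.11 ± 0.201 and C1qb, a complement subunit made by macrophages, by -0.19 ± 0.135. The Clec4f value moved with most single rats left out, from -0.23 without vehicle replicate 5 to -0.01 without dosed replicate 5. The list stood at -0.40 and -0.39 in vehicle replicates 1 and 5 and at 0.33 in replicates 2 and 3, and its median difference ran from -0.22 without vehicle replicate 1 to -0.03 without vehicle replicate 2. Interferon response genes spread further, from -0.61 to 0.49 in vehicle and from -0.65 to 0.73 at 0.1 mg/kg; 9 of 27 were higher with a median of -0.05, which became 0.10 without dosed replicate 1 and -0.18 without dosed replicate 6. Ifit2, an interferon-induced antiviral gene, differed by 0.27 ± 0.212, from 0.17 without dosed replicate 6 to 0.47 without dosed replicate 1.

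The remaining marker lists had medians from -0.08 (neutrophils, 3 of 10 higher, 9 of them dim) to 0.05 (erythroid cells, 7 of 8 higher). Stellate cell and fibroblast markers were higher in 6 of 16, with a median of -0.07 that ran from -0.11 without vehicle replicate 3 to 0.04 without vehicle replicate 5, and Rgs5, a pericyte gene, was lower by 0.38 ± 0.14. Endothelial markers, which include Ptprb, had a median of -0.03, those of cholangiocytes -0.02, and those of lymphocytes, pancreatic acini and adipose and muscle -0.01 each. Vehicle replicate 5, the high vehicle rat for the serine list, was low for the Kupffer list and high, at 0.28, for the stellate list, and dosed replicate 1 was low for both. The part of cell makeup in the serine and ATF4 differences was not tested.

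Against the mean of the 4 higher doses, a comparison that leaves the vehicle mean out, 0 of 31042 probe sets (0%) passed in limma, the smallest adjusted p was 1, and 1133 (3.65%) had an unadjusted p under 0.05. Over genes these were 466 (3.28%), 211 (1.48%) higher at 0.1 mg/kg and 255 (1.79%) lower. In the serine list 9 of 14 genes were higher at 0.1 mg/kg than at the higher doses, where 49.4% of all genes were, with a median of 0.09 and 0 at an unadjusted p under 0.05. Psat1 differed by 0.32 with an unadjusted p of 0.124. In the ATF4 list 15 of 18 were higher with a median of 0.14 and 2 at that level, and Ddit3 differed by 0.22 with an unadjusted p of 0.0284. Pck1 was lower than at the higher doses by 0.41, unadjusted p of 0.00695 in limma, and Oat by 0.29, unadjusted p of 0.0479. This comparison reuses the arrays at 0.1 mg/kg, and Psat1, Pck1 and Oat were picked by their p against vehicle. Their values here are therefore not independent of those against vehicle and are no separate support.

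The smallest p values in that comparison belonged to other genes. Higher at 0.1 mg/kg were Gcfc2 (0.22), C5h1orf159 (0.22), Stac (0.21), Tmem17 (0.21) and Aurkc (0.20), all but Tmem17 below every array median. Lower were Slc2a5, the fructose carrier (-0.31), Cmtm7 (-0.29), Synrg (-0.29), Slc10a7 (-0.20) and Thnsl2 (-0.15). Against vehicle, Slc2a5 differed by -0.31 ± 0.103, with dosed rats from 4.77 to 5.49 and vehicle rats from 5.01 to 5.65. Synrg differed from vehicle by -0.25, but by 0.03 on its other probe set.

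The differences from vehicle at the 5 doses share the same 6 vehicle rats and are given side by side. From 0.1 to 943 mg/kg, Psat1 differed from vehicle by 0.93, 0.45, 0.39, 1.09 and 0.51. Asns differed by 0.80, 0.41, 0.29, 0.98 and 0.34, and Slc3a2 by 0.31, 0.10, 0.14, 0.44 and 0.06. For these 3 genes the values at 0.1 and 94.3 mg/kg were the farthest from 0. The pattern of Fgf21 was different, at 1.02, 0.87, 0.41, -0.83 and -0.01, and that of Ddit4 was 1.10, 0.81, 0.72, 0.23 and 0.56. Oat differed by -0.57, -0.43, -0.25, -0.34 and -0.10. Pck1 stood at -0.43 at 0.1 mg/kg and between -0.10 and 0.10 at the other doses. Nfil3 differed by 0.45, 0.02, 0.48, 0.03 and 0.26. List medians were 0.27, 0.10, 0.10, 0.32 and 0.06 for the serine list and 0.21, 0.14, 0.14, 0.02 and 0.08 for the ATF4 list.

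**Figure D5:**
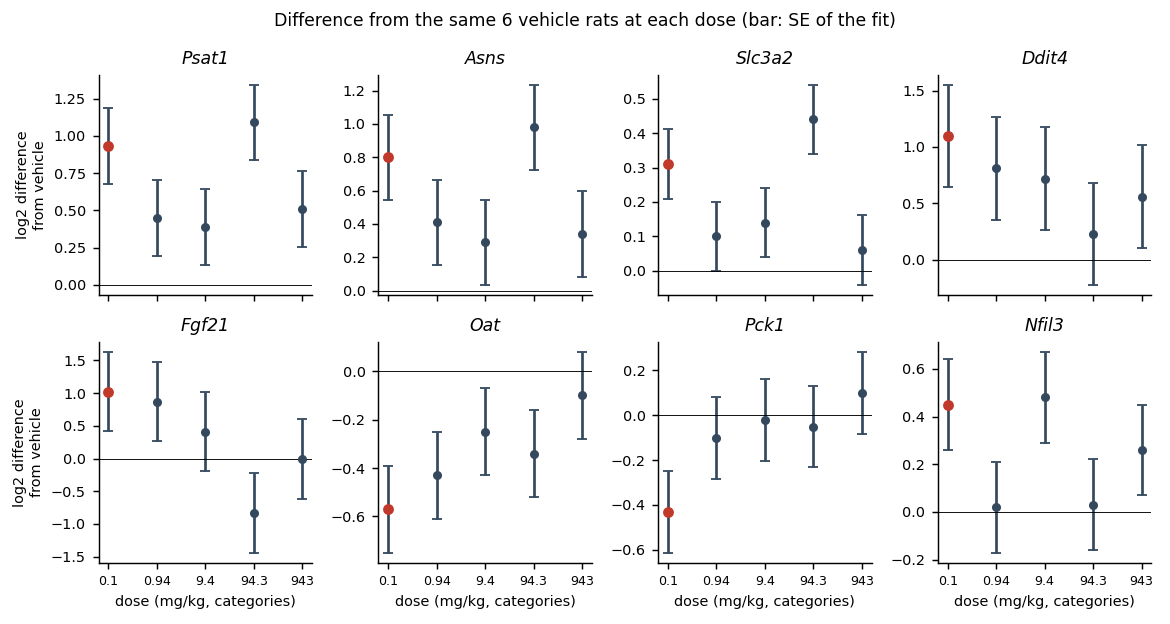
Each panel shows 1 gene, with the log2 difference from the same 6 vehicle rats at 5 doses (horizontal axis, mg/kg, as categories) and the SE of the fit as a bar; 0.1 mg/kg is red and the vertical scales differ. Psat1 is at 0.93 at 0.1 mg/kg and 1.09 at 94.3 mg/kg, and Fgf21 lies on both sides of 0.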

How the data were processed

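Liver RNA of 36 rats was hybridised to 36 single-colour Affymetrix arrays after selection for an RNA integrity number of at least 7, per the labels' protocols. The deposited values are log2 probe set levels, produced by the authors by RMA (affy), per the submitters' processing notes; no version is given in the sources used here. RMA forces equal value distributions, so a change shared by most genes would not show. Per the series' design text the authors used R/maanova at a false discovery rate of 5%, which was replaced by limma.

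The 57 control probe sets were left out and no filter on signal was used. Of 31042 probe sets 20826 name 1 gene, 436 several and 9780 none; a gene is represented by its brightest probe set naming it alone, and levels of different probe sets were not compared. A single model of all 36 arrays with 6 group means was fitted (R 4.3.3, limma 3.58.1, lmFit and eBayes, 30 residual degrees of freedom), after a test on simulated data, and two-sided p values were adjusted by Benjamini-Hochberg over all probe sets. Animals are separate, but no scan or extraction batch is given in the sources used here. The number of arrays limits the precision.

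The comparison, the 30 pathway and 10 marker lists (813 genes, 727 measured) and the rule for named genes were chosen with earlier results of these data known. The rule takes, per direction, the 12 genes of smallest p where fewer than 5 pass, the 5 of widest gap between groups, and 5 against the higher doses, all genes at 2-fold, up to 4 members per list of smallest p and defining members, and 20 response genes, of which 18 were measured. Mthfd2, Slc7a11, Slc7a1, Chac1, Trib3, Pck2, Cebpb, Pc, Nip7, Gpt and Angptl4 were added for the text after their values were seen. Alternatives covered filters, normalization, variance estimation, weights per array, a block on the replicate number, groups in the fit and each rat left out.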

Additional observations from a re-analysis of the deposited data

Results flagged for a closer look

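The values here are those of a rat far from the rest of its group of 6, where the gap to its nearest neighbour took more of the group's range than Dixon's critical value allows; chance flags about 1 in 20 groups, and 13 of 188 groups were marked. Ugt2b stood at 4.71 in 0.1 mg/kg replicate 1, against 12.3 in the next rat. In the same rat Serpina7 was lowest of its group at 9.65 and Ifit2 at 6.90, and Thnsl2 was highest at 8.05. The rat 0.1 mg/kg replicate 2 was highest for Slc7a11 at 4.79 and for Slc3a2 at 10.01. Vehicle replicate 1 was lowest for Stau2 at 5.08 and Mrps6 at 7.15 and highest for Aldh3a1 at 3.25. Vehicle replicate 5 was lowest for Gls2 at 10.04 and Txnip at 8.67, vehicle replicate 2 for Ppie at 7.05 and vehicle replicate 6 for Atf4 at 9.72.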

How the results depend on the processing

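Under every alternative run, 0 probe sets passed in either comparison; the smallest adjusted p against vehicle ranged from 0.184 (without 0.1 mg/kg replicate 1) to 1. Counts at an unadjusted p under 0.05 were 997 with the upper 50% of probe sets and 809 with 1 probe set per gene, where fewer were tested, and 1344 to 2046 with 1 rat left out. Against the 4 higher doses they were 503 and 485. The 73 probe sets whose groups do not overlap became 46 and 39 under the same filters, and 93 to 189 with 1 rat left out, since fewer rats overlap less often; the highest count came without vehicle replicate 3 and without 0.1 mg/kg replicate 1, and vehicle replicate 1, the array of lowest median correlation, gave 129. With the replicate number as a block, 0 passed and 1774 had an unadjusted p under 0.05 in limma. Same-numbered rats showed deviation correlations of -0.15 to 0.22. Differently numbered rats were not set beside them, so these values do not show whether the numbers pair the animals. The sign of Pfkfb3 turned to -0.02 over all its probe sets, and the difference of Cyp3a23-3a1 ran from -0.10 to 0.000136 with 1 rat left out; the cause was not tested.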
